A study of Mus musculus with 9 samples.

Results

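The 9 genes described here encode transcription factors and hormone receptors of luminal mammary epithelium: the pioneer factor Foxa1, the zinc-finger factor Gata3, the epithelial ETS factors Elf5, Elf3, Ehf and Spdef, and the receptors Esr1, Pgr and Prlr. They were chosen by name, with earlier results of these data known, and make up 9 of the 24346 gene rows of the table, and all 9 were found in it. Expression was measured by RNA sequencing, with oligo-dT-primed first strands, in cell lines grown from mammary tumours of MMTV-neu mice (strain FVB/N), whose transgene puts the neu (Erbb2) oncogene under a viral promoter active in mammary epithelium. Every library, knockout or wild type, comes from such a tumour line, and the culture medium held insulin and hydrocortisone, hormones that mammary cells respond to, beside serum and epidermal growth factor. The question was how loss of Janus kinase 1 (Jak1), the kinase that passes cytokine signals to STAT factors, bears on these cells.

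There were 4 libraries labelled Jak1 knockout, of lines 45555, 47298, 45566B and 46295, and 5 labelled Jak1 wild type, of lines 45555, 47298, 45566B, 33373 and 33377. Lines 45555, 47298 and 45566B were sequenced in both states and treated with puromycin, and their titles call the states Cre and Wt. There was 1 library for each line and state. Because separate cultures are not named in the labels, a p-value here covers the spread among libraries alone, part of which may be technical. Jak1 itself had 74.4, 27.5, 14.2 and 23.0 FPKM (fragments scaled by transcript length and library size) in the knockout libraries of 45555, 47298, 45566B and 46295, against 86.7, 63.1, 16.1, 19.4 and 54.6 FPKM in wild-type libraries of 45555, 47298, 45566B, 33373 and 33377. The groups overlapped. A gene-level value does not separate a deleted exon from the rest of the transcript, and the sources used here do not say which part was deleted, so this level does not check the labels.

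Mammary ducts and alveoli have an inner luminal layer that senses hormones and makes milk, around which lies a contractile basal layer. GATA3 holds cells in the luminal state, and FOXA1 opens chromatin for the estrogen receptor in the hormone-sensing luminal cells. ELF5 drives the alveolar, milk-producing fate downstream of the prolactin receptor, which signals through JAK2 and STAT5.

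On build GRCm38 (mm10) with the GENCODE vM21 annotation, all 9 are protein-coding genes. Elf3 is on chromosome 1 (135253575-135258568, minus strand) and Gata3 on chromosome 2 (9857078-9890034, minus strand). Ehf (103263433-103303278, minus strand) and Elf5 (103411688-103450989, plus strand) are also on chromosome 2, with 108 kb between them. Pgr is on chromosome 9 (8899833-8968611, plus strand), Esr1 on chromosome 10 (4611593-5005614, plus strand) and Foxa1 on chromosome 12 (57540628-57546916, minus strand). Prlr is on chromosome 15 (10177238-10349180, plus strand) and Spdef on chromosome 17 (27714352-27728955, minus strand).

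RefSeq sequence upstream of a transcription start (GRCm38.p6) was at hand for 8 of the 9 genes, with 12 starts in all, and Ehf had no entry. The 4 windows below are shown because Foxa1, Elf5 and Prlr are among the genes that set the lines apart below, and because these windows lie in intron or upstream sequence, except for their last 10 bases in Foxa1 and 6 in Elf5, which the annotation places in an exon. Each has 250 bases, 5′ to 3′ on the strand of the gene, ending at the base before the start. Capitals mark a match on either strand to the forkhead motif TGTTTAC, the ETS motif AGGAAG or the STAT motif TTCNNNGAA. The windows are Foxa1 at chr12:57546112-57546361 (minus strand), Elf5 at its second start at chr2:103423818-103424067 (plus strand), and Prlr at its first start at chr15:10176988-10177237 and its second at chr15:10223656-10223905 (plus strand).
Foxa1: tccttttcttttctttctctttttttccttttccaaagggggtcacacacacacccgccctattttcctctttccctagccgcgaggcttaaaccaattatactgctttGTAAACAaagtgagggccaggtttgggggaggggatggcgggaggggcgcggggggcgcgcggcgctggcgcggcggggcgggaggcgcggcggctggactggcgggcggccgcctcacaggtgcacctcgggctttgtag
Elf5 second start: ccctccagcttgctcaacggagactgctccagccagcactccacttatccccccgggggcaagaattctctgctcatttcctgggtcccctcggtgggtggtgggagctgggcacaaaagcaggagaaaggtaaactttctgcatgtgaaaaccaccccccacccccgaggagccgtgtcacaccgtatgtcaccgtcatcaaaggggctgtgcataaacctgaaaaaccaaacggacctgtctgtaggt
Prlr first start: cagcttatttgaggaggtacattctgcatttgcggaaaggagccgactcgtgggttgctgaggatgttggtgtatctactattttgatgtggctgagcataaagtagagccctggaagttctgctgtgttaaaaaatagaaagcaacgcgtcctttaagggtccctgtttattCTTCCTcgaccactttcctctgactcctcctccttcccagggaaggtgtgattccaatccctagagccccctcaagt
Prlr second start: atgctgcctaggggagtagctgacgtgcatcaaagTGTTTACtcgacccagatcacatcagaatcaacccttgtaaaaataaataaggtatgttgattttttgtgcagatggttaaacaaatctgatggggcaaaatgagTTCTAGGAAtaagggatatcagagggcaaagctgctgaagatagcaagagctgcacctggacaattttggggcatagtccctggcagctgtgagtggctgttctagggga

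The forkhead motif TGTTTAC stood 141 bases upstream of the Foxa1 start, on the strand opposite the gene, and 215 bases upstream of the second Prlr start. It is held by 3.17% of the 32851 windows of this length in the RefSeq table. The STAT motif TTCNNNGAA, as TTCTAGGAA, stood 110 bases upstream of the second Prlr start and 188 bases upstream of the second Esr1 start, and 7.02% of all windows hold a match. The ETS motif AGGAAG was found at 5 of the 12 starts, 1 each for Pgr, Esr1 and Spdef and 2 for Prlr, and in 29.5% of all windows. Matches to the GATA motifs AGATAA (9.99% of all windows) and TGATAA (7.94%), the ETS motif CGGAAG (13.6%), the grainyhead motif AACCNGTT (1.79%) and the palindromic estrogen response element (0.0639%) were found at none of the 12 starts. No match overlapped another. A match is only a match of letters.

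Across the 9 libraries, Gata3 and Esr1 were listed above 0.5 FPKM in every library. Elf5, Elf3, Ehf and Prlr were high in some lines and near 0 in others. Foxa1 reached 5 FPKM in 1 library only, and Spdef and Pgr stayed under 1 FPKM in all 9. The number of the 9 genes at or above 1 FPKM was 1, 3, 6 and 6 in the knockout libraries of 45555, 47298, 45566B and 46295, against 2, 2, 6, 5 and 3 in the wild-type libraries of 45555, 47298, 45566B, 33373 and 33377. In bulk RNA, fewer cells of a type and less RNA per cell cannot be told apart.

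**Figure D1:**
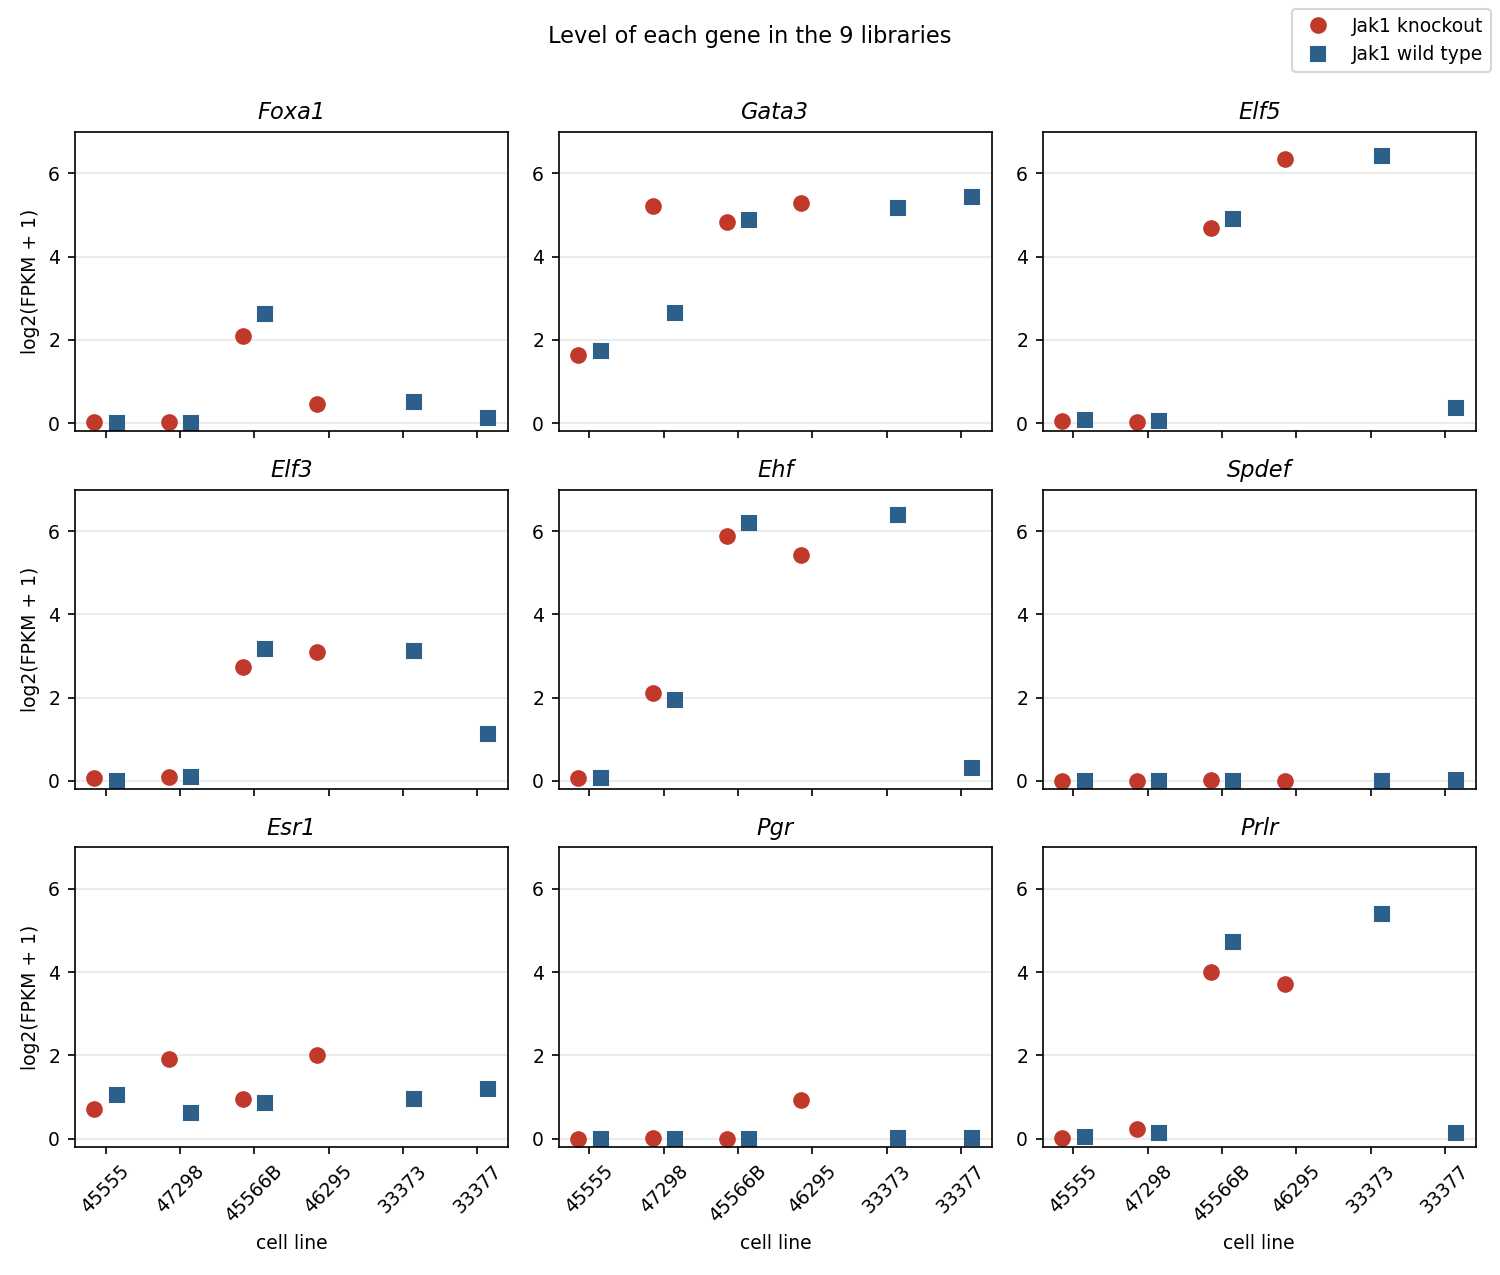
Level of each of the 9 genes, as log2(FPKM + 1), in the Jak1 knockout (circles) and wild-type (squares) library of each cell line, with 1 point per library. Elf5 stands high in both 45566B libraries, in 46295 and in 33373 (24.9 to 84.0 FPKM) and near 0 elsewhere, while Gata3 is low in line 45555 and in 47298 wild type only.

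Gata3 had 2.099, 36.4, 27.6 and 38.4 FPKM in knockout libraries of 45555, 47298, 45566B and 46295, against 2.30, 5.25, 28.2, 35.2 and 42.3 FPKM in wild-type libraries of 45555, 47298, 45566B, 33373 and 33377. The means were 26.1 ± 16.7 FPKM in knockout libraries (SD, n = 4) and 22.6 ± 17.97 FPKM in wild-type libraries (SD, n = 5), and the groups overlapped. Both libraries of 45555 and the wild-type library of 47298 were low, and the other 6 lay between 27.6 and 42.3 FPKM.

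Foxa1 had 0.0132, 0.0151, 3.27 and 0.372 FPKM in knockout libraries of 45555, 47298, 45566B and 46295, against 0, 0, 5.20, 0.431 and 0.0851 FPKM in wild-type libraries of 45555, 47298, 45566B, 33373 and 33377. Line 45566B stood above the other 5 lines in both states. Multiplied by the relative depth of its library, each of the 7 Foxa1 values above 0 came within 0.02 of a whole multiple of the smallest step. On that scale Foxa1 had 1 step in each of the 45555 and 47298 knockout libraries, 265 in 45566B knockout and 19 in 46295 knockout, against 638 in 45566B, 39 in 33373 and 8 in 33377 wild type, so the low values rest on very few fragments if a step is 1 fragment.

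Elf5 had 0.0409, 0.0234, 24.9 and 80.8 FPKM in knockout libraries of 45555, 47298, 45566B and 46295, against 0.0546, 0.0399, 28.9, 84.0 and 0.284 FPKM in wild-type libraries of 45555, 47298, 45566B, 33373 and 33377. The means were 26.5 ± 38.1 FPKM in knockout libraries (SD, n = 4) and 22.7 ± 36.5 FPKM in wild-type libraries (SD, n = 5). Lines 45566B, 46295 and 33373 were high and lines 45555, 47298 and 33377 low, in whichever state they were sequenced.

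Ehf, an ETS factor of differentiated epithelia, had 0.0469, 3.32, 58.4 and 42.2 FPKM in knockout libraries of 45555, 47298, 45566B and 46295, against 0.0501, 2.85, 72.2, 83.4 and 0.243 FPKM in wild-type libraries of 45555, 47298, 45566B, 33373 and 33377. Line 47298 took a middle place, above 45555 and 33377 and below the other 3 lines. The means were 26.0 ± 28.9 FPKM in knockout libraries (SD, n = 4) and 31.7 ± 42.2 FPKM in wild-type libraries (SD, n = 5), and the groups overlapped.

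Elf3, another epithelial ETS factor, had 0.0452, 0.0750, 5.66 and 7.62 FPKM in knockout libraries of 45555, 47298, 45566B and 46295, against 0, 0.0693, 7.98, 7.66 and 1.17 FPKM in wild-type libraries of 45555, 47298, 45566B, 33373 and 33377. The 4 libraries with high Elf5 were also the highest here, at lower levels per length, and 33377 lay between them and the low lines. Spdef, an ETS factor of secretory and hormone-sensing epithelia, had 0.0227 FPKM in the knockout library of 45566B and 0.0196 FPKM in the wild-type library of 33377, and was listed at 0 in the other 7 libraries. Each of these 2 values was 1 step.

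Prlr, the prolactin receptor, had 0.0155, 0.169, 15.1 and 12.1 FPKM in knockout libraries of 45555, 47298, 45566B and 46295, against 0.0207, 0.107, 25.4, 41.4 and 0.0941 FPKM in wild-type libraries of 45555, 47298, 45566B, 33373 and 33377. The means were 6.85 ± 7.89 FPKM in knockout libraries (SD, n = 4) and 13.4 ± 19.1 FPKM in wild-type libraries (SD, n = 5). It was above 10 FPKM in the same 4 libraries in which Elf5 was above 20 FPKM, and the 2 knockout values among these were lower than the 2 wild-type values.

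Esr1, which encodes estrogen receptor alpha, had 0.651, 2.80, 0.925 and 3.01 FPKM in knockout libraries of 45555, 47298, 45566B and 46295, against 1.08, 0.540, 0.808, 0.921 and 1.30 FPKM in wild-type libraries of 45555, 47298, 45566B, 33373 and 33377. The means were 1.84 ± 1.23 FPKM in knockout libraries (SD, n = 4) and 0.929 ± 0.284 FPKM in wild-type libraries (SD, n = 5). The 2 highest values were knockout libraries, and the groups overlapped. Pgr, the progesterone receptor and a target of estrogen receptor alpha, had 0.900 FPKM in the knockout library of 46295, where Esr1 was also highest. In 47298 knockout, where Esr1 was nearly as high (2.80 FPKM), Pgr had 0.00672 FPKM. A link between Esr1 and Pgr was not tested. Pgr had 0.00986 FPKM in 33373 and 0.00475 FPKM in 33377 wild type, and was listed at 0 in the remaining 5 libraries. The Pgr value in 46295 was 103 steps, and the other 3 were 1 or 2.

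The order of levels differed between these genes. For Elf5 it ran, high to low, 33373 wild type, 46295 knockout, 45566B wild type, 45566B knockout, 33377 wild type, and then the 4 libraries of 45555 and 47298, all under 0.1 FPKM. Gata3 was highest in 33377 wild type (42.3 FPKM), where Elf5 had 0.284 FPKM, and was also high in 47298 knockout (36.4 FPKM), where Elf5 had 0.0234 FPKM. The 2 libraries of 45566B lay next to each other in both orders, and their gap was 1.16-fold for Elf5 and 1.02-fold for Gata3, higher in wild type. Steps in the order between lines with 1 library have no replicate check.

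**Figure D2:**
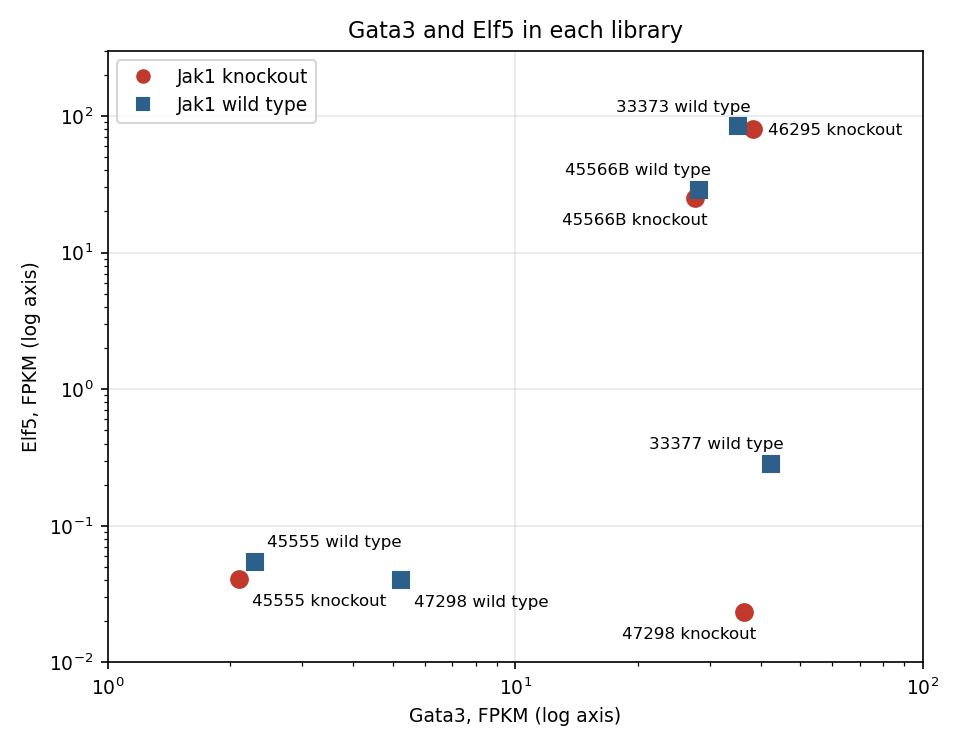
Gata3 against Elf5 in each of the 9 libraries, both in FPKM on log axes, with circles for Jak1 knockout and squares for Jak1 wild type. In 45566B, 46295 and 33373 both genes are high, in 45555 both are low, and 33377 wild type and 47298 knockout hold Gata3 at 42.3 and 36.4 FPKM with Elf5 at 0.284 and 0.0234 FPKM.

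The knockout libraries were first compared with the wild-type libraries within lines 45555, 47298 and 45566B. A gene was tested when its mean over the 6 libraries was at least 1 FPKM, which 7 of the 9 genes met, all but Spdef and Pgr. With limma on log2(FPKM + 1), the line as a block and Benjamini-Hochberg adjustment over 12063 genes, none of the 7 was called at 0.05, and none of all genes was (0%; smallest adjusted p = 0.762). At an unadjusted p under 0.05 there were 406 genes, none of them among the 7. Foxa1, Elf5, Elf3 and Prlr met the filter through line 45566B alone, and were under 0.2 FPKM in both states of 45555 and 47298. Of the 7, 2 were higher and 5 lower in knockout, with a median log2 difference of -0.08, against -0.01 over all genes tested, and this split follows the 45566B pair. Without 45566B 3 of the genes could be tested, and all 3 were higher, Gata3 by 1.25, Esr1 by 0.48 and Ehf by 0.08 on the log2 scale, with none called.

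Within these 3 lines Gata3 had a log2 difference of 0.82 (SE 0.63, adjusted p = 0.763 with limma), Esr1 one of 0.35 (SE 0.41) and Prlr one of -0.21 (SE 0.27). The other 4 were Foxa1 at -0.17 (SE 0.27), Elf3 at -0.12 (SE 0.25), Elf5 at -0.08 (SE 0.20) and Ehf at -0.05 (SE 0.19). Adjusted p-values with limma were between 0.763 and 0.948 for the 7. The Gata3 value rested on line 47298. Without that line it was -0.06, and 6 genes of all were called, none of them among the 7. A p above the threshold does not show that the states act alike in any of these genes.

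By line, the Gata3 log2 difference between knockout and wild type was -0.09 in 45555, 2.58 in 47298 and -0.03 in 45566B. In 47298 the knockout library had 6.94 times the FPKM of the wild-type library, the only one of the 3 pairs with a gap over 2-fold. In that pair 9.1% of genes were past 2-fold higher in knockout and 11.8% past 2-fold lower, and 1.28% were as far higher as Gata3. Esr1 was also past 2-fold higher in that pair, 5.17-fold on the FPKM scale and by 1.30 on the log2 scale, a value that 6.13% of genes reached. In 45555 its log2 difference was -0.33 and in 45566B 0.09. Cell-type markers also differed within the 47298 pair. Luminal epithelial markers summed to 686 FPKM in knockout and 161 FPKM in wild type, and fibroblast markers to 465 and 6524 FPKM. Erbb2 had 243 FPKM in knockout and 37.6 FPKM in wild type of that line. Whether the Gata3 and Esr1 gaps go with these shifts was not tested.

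In the 45566B pair, 6 of the 9 genes had a mean of at least 1 FPKM, and all 6 were lower in knockout, as were 47.9% of all genes in that pair. None was past 2-fold, against 2.52% of genes past 2-fold lower and 0.988% past 2-fold higher. Prlr was lowest, at a log2 difference of -0.71, and 3.67% of genes in that pair were as far lower. Foxa1 had -0.54, Elf3 -0.43, Ehf -0.30, Elf5 -0.21 and Gata3 -0.03, while Esr1, under the filter there, had 0.09. In the 45555 pair only Gata3 had a mean of at least 1 FPKM, and its difference was not past 2-fold (3.51% of genes were past it higher and 7.3% lower). The other genes were too low in that pair for such a gap to show on this scale, and Esr1, just under the filter, had 0.651 FPKM in knockout and 1.08 FPKM in wild type. With 1 library on each side these single-line values have no replicate check.

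**Figure D3:**
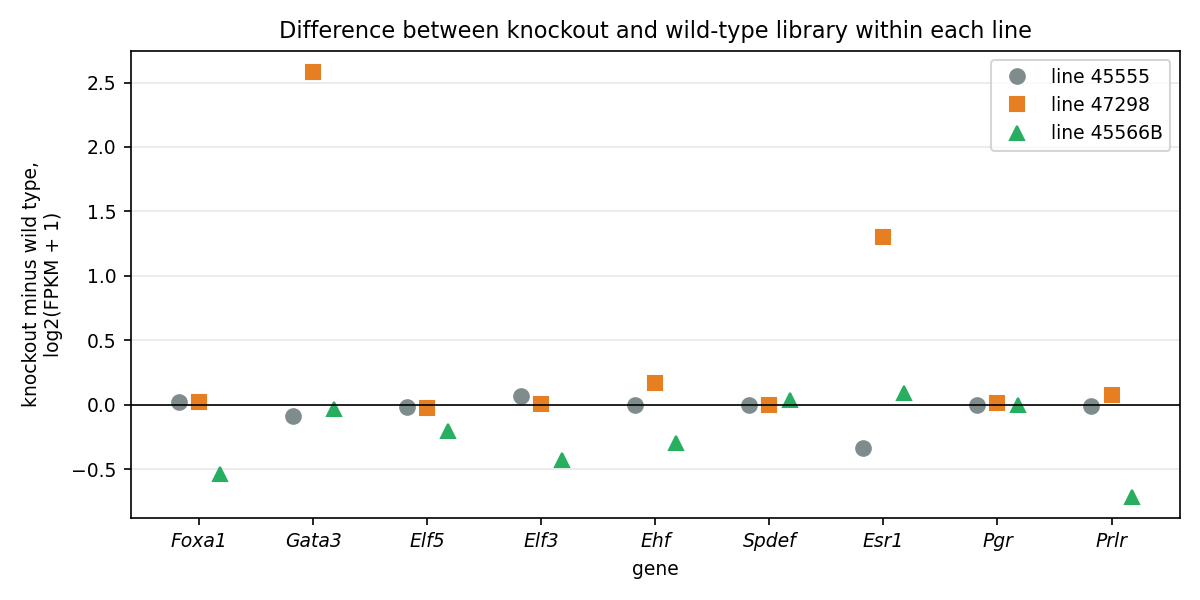
Difference between the Jak1 knockout and wild-type library of each line (log2(FPKM + 1), knockout minus wild type) for the 9 genes in lines 45555, 47298 and 45566B, with 1 point per line and gene. Gata3 (2.58) and Esr1 (1.30) in line 47298 stand apart from the rest, which lie between -0.71 and 0.17.

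Over all 9 libraries, without a term for the line, none of the 7 tested genes was called and none of 12198 genes was (0%; smallest adjusted p = 0.851, limma with Benjamini-Hochberg). At an unadjusted p under 0.05 there were 144 genes, none of them among the 7. The log2 differences between knockout and wild type were 0.46 for Esr1 (SE 0.35), 0.42 for Elf5 (SE 1.87), 0.39 for Ehf (SE 1.77), 0.28 for Gata3 (SE 1.02), 0.00 for Elf3 (SE 0.97), -0.01 for Foxa1 (SE 0.69) and -0.09 for Prlr (SE 1.49). Their median was 0.28, against 0.00 over all genes tested. No gene of the 9 had groups that did not overlap, while 54 of the 12198 genes did (0.443%). Without 45555 knockout, 45566B knockout or 45555 wild type 1 gene was called in all, and none of the 7. The standard errors of Elf5, Ehf and Prlr were large because their levels within each state ran from under 0.1 to over 10 FPKM.

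The lines were then set side by side, with limma on log2(FPKM + 1) and terms for line and state over the 9 libraries. These contrasts were chosen after the values had been seen. Foxa1, Elf5, Elf3, Ehf and Prlr passed the filter only through libraries in which they are high, so their direction was fixed by the choice. The differences are therefore a description, given with standard errors and without p-values. Below, called means an adjusted p under 0.05, which marks a gap that is large beside those within pairs. No count of called genes is evidence for these 9 or for the marker and gene lists below. Between 45566B and 45555, 5 of the 7 genes were called, all higher in 45566B, where 15.3% of the 12198 genes were called in either direction (8.32% higher and 7.03% lower). The log2 difference was 5.97 for Ehf (SE 0.21), 4.73 for Elf5 (SE 0.19) and 4.34 for Prlr (SE 0.29). It was 2.92 for Elf3 (SE 0.24) and 2.35 for Foxa1 (SE 0.27). Gata3 was 3.18 higher (SE 0.80) and not called, but was called without 47298 knockout and without 47298 wild type, where 2834 and 2840 genes were called in all. Esr1 differed by 0.01 (SE 0.48).

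Between 45566B and 47298 the same 5 genes were called, all higher in 45566B, where 12.7% of all genes were called (7.44% higher and 5.25% lower). The log2 differences were 4.75 for Elf5 (SE 0.19), 4.18 for Prlr (SE 0.29), 4.01 for Ehf (SE 0.21), 2.85 for Elf3 (SE 0.24) and 2.35 for Foxa1 (SE 0.27). Gata3 differed by 0.92 (SE 0.80) and Esr1 by -0.37 (SE 0.48), neither called. Without the 47298 wild-type library 3 of the 7 genes (Elf5, Ehf and Prlr) and 635 genes in all were called in this contrast. Without 47298 knockout 6 of the 7 were called, among them Gata3 at 2.24. Leaving out any 1 library of 45566B or 45555 left no gene called in this contrast or in that of 45566B with 45555. These fits had 1 residual degree of freedom fewer, as did those without a 47298 library.

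Between 47298 and 45555, none of the 7 genes was called and no gene of all 12198 was (0%), with 2515 genes at an unadjusted p under 0.05 in limma, among them Ehf. Ehf had a log2 difference of 1.96 (SE 0.21), and Gata3 one of 2.26 (SE 0.80). Without the 47298 wild-type library the Gata3 value was 3.58, and it was called, as were 275 genes in all.

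The wild-type lines 33373 and 33377 have 1 library each, so their contrast has no replicate of its own and rests on the spread of the other lines. Elf5 was 6.05 higher in 33373 on the log2 scale (SE 0.27), Ehf 6.08 higher (SE 0.30) and Prlr 5.27 higher (SE 0.41). On the FPKM scale the Elf5 ratio was 296 and the Ehf ratio 343, over low values in 33377 (0.284 and 0.243 FPKM) that make such ratios imprecise. These 3 of the 7 genes were called, where 1.2% of all genes were (1.02% higher and 0.18% lower). None of the 3 was called with a pseudocount of 0.1, or without any 1 of the 6 libraries of the paired lines. Elf3 was 2.00 higher (SE 0.34), Foxa1 0.40 higher (SE 0.38), and Gata3 and Esr1 both had -0.26 (SE 1.13 and 0.68), with none of these called.

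Between 46295 and 45566B, none of the 7 genes was called and no gene of 12198 was (0%), with 2146 at an unadjusted p under 0.05, Elf5 and Foxa1 among them. Elf5 was 1.60 higher in 46295 (SE 0.24) and Foxa1 had -1.82 (SE 0.35). With no filter on low values, among 18748 genes, Pgr was 0.92 higher in 46295 (SE 0.01) and called. That standard error comes from a gene at or near 0 in all other libraries, and the gap rests on the 1 library of 46295.

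**Figure D4:**
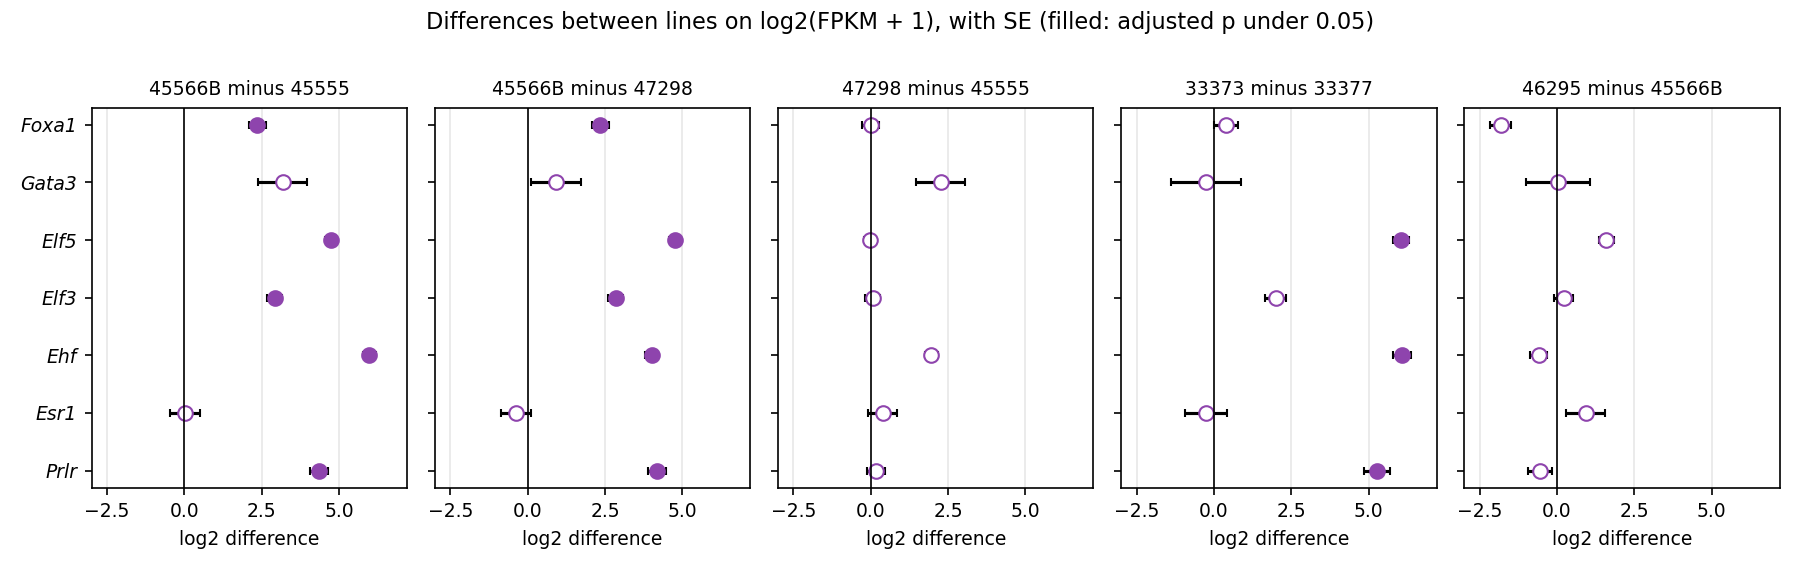
Differences between lines on log2(FPKM + 1) for the 7 tested genes, from limma with terms for line and state over 9 libraries. Points are the differences, bars the standard errors, and filled points have an adjusted p under 0.05, in contrasts chosen after the values had been seen. Elf5, Ehf and Prlr lie between 4.01 and 6.08 in the contrasts of 45566B with 45555 and with 47298 and of 33373 with 33377, while Esr1 lies between -0.37 and 0.01 in these 3.

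Markers of cell types moved with the lines. Several passed the filter only through lines in which they are high, so their direction was fixed by the choice of contrast. Among them, Epcam, Cldn4, Cldn7 and Cdh1 were under 1 FPKM in both states of 45555 and 47298. The counts called therefore only describe the lines. Of 9 tested luminal epithelial markers, 8 were called higher in 45566B than in 45555 (8.32% of all genes were), 5 higher in 45566B than in 47298 (7.44%) and 5 higher in 33373 than in 33377 (1.02%). Their summed level over all 10 measured ran from 16.4 to 3508 FPKM in knockout libraries and from 13.6 to 3492 FPKM in wild-type libraries. Of 5 tested luminal progenitor markers, the counts called higher were 5, 5 and 4 in these contrasts, and of 9 mesenchymal markers 5, 5 and 0 were called lower (7.03%, 5.25% and 0.18% of all genes). Fibroblast markers, summed over 10, ran from 3.00 to 4759 FPKM in knockout libraries and from 1.84 to 6524 FPKM in wild-type libraries. Of the 8 tested, 6 were called lower in 45566B than in 45555, 7 lower in 45566B than in 47298 and 0 in 33373 against 33377. Krt19 went the other way from the other tested luminal markers between 45566B and 45555 (-2.59, SE 0.72, not called). It had 4.70 FPKM in 45555 knockout and 5.37 FPKM in 45555 wild type, and 0 in both 45566B libraries and in 46295. Of the 9 mesenchymal markers, 2 were higher in 45566B than in 45555, and 1, Twist1, higher than in 47298, none called. Dcn and Fap were each listed at 0 in 3 libraries and Lum in 4. The part of these markers in the differences between lines was not tested.

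Epcam, an adhesion protein of epithelia, had 0.423, 0.581, 681.3 and 524 FPKM in knockout libraries of 45555, 47298, 45566B and 46295, against 0.169, 0.324, 720.1, 420 and 2.36 FPKM in wild-type libraries of 45555, 47298, 45566B, 33373 and 33377. It was under 1 FPKM in both states of 45555 and 47298, while the labels call all 9 libraries mammary tumour cells. Krt8, a luminal keratin, had 157 FPKM in 47298 knockout, 38.5 FPKM in 47298 wild type and 74.9 FPKM in 33377 wild type, and was under 1 FPKM in both libraries of 45555. Cd24a, another marker of the luminal list, had 271 FPKM in 47298 knockout and 60.8 FPKM in 47298 wild type, so line 47298 held some luminal markers without Epcam. Immune markers, summed over 6, were at most 0.171 FPKM in knockout libraries and at most 0.300 FPKM in wild-type libraries.

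Of 11 basal and myoepithelial markers, 4 were tested. In 45566B against 45555, 1 was called higher and 2 lower (8.32% and 7.03% of all genes were). The counts were 1 and 1 against 47298 (7.44% and 5.25%), and 1 and 0 in 33373 against 33377 (1.02% and 0.18%). Krt14 was the gene called higher in each, and had at most 0.165 FPKM in both states of 45555 and 47298. It passed the filter only through lines in which it is high, so its direction was fixed. The summed level of the 11 markers ran from 8.48 to 1332 FPKM in knockout libraries and from 5.71 to 217 FPKM in wild-type libraries. Adipocyte markers (3 of 6 tested) had none called in these 3 contrasts, and their sums ran from 1.39 to 328 FPKM in knockout and from 2.05 to 952 FPKM in wild-type libraries. Endothelial markers (1 of 5 tested) had 1 called lower in 45566B against 47298, where 5.25% of all genes were. Their sums were at most 4.08 FPKM in knockout and 6.63 FPKM in wild-type libraries. The part of the basal, adipocyte and endothelial markers was not tested either.

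The other genes of the luminal program were taken as lists. Of 20 other luminal transcription factors, 15 were tested within the 3 lines, with 8 higher and 7 lower in knockout and none called, and 14 over 9 libraries, with 9 higher and 5 lower and none called. The medians were 0.01 and 0.08 on the log2 scale. Between lines, 10 of 14 were called higher in 45566B than in 45555, where 8.32% of all genes were, among them Grhl1, Grhl2, Klf5, Ovol2, Tfap2a, Tfap2c, Esrp1, Hey1 and Id2. Of these named, all but Klf5 and Tfap2a were also called higher in 45566B than in 47298, and Grhl2 and Esrp1 were called higher in 33373 than in 33377. Among them, Grhl1, Grhl2, Ovol2, Tfap2c, Esrp1 and Hey1 were under 1 FPKM in both states of 45555 and 47298. These passed the filter only through other lines, so their direction was fixed. Grhl2, a grainyhead factor that keeps epithelial junction genes on, had 25.0 FPKM in knockout and 24.0 FPKM in wild-type cells of 45566B, against 0.0166 and 0.0331 FPKM in knockout and wild-type cells of 45555. Its log2 difference was 4.64 (SE 0.19). Esrp1, an epithelial splicing regulator, was 6.04 higher on the log2 scale in 45566B than in 45555 (SE 0.19). Xbp1, a secretory-pathway factor with the highest mean of the list, was between 42.1 and 94.6 FPKM in all 9 libraries and not called in any of these comparisons.

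Of 16 genes of the prolactin receptor pathway and of milk proteins, 9 were tested within the 3 lines, with 3 higher and 6 lower in knockout, and 10 over 9 libraries, with 6 higher and 4 lower, and none was called. Csn1s1, Csn3, Btn1a1 and Ltf were called higher in 45566B than in 45555 (8.32% of all genes were) and than in 47298 (7.44%). Ltf was called higher in 33373 than in 33377 (1.02%). Csn1s1 and Btn1a1 were under 1 FPKM in both states of 45555 and 47298, and Ltf was at most 1.38 FPKM there. Csn1s1, Btn1a1 and Ltf passed the filter only through lines in which they are high, so their direction was fixed. Ltf, the milk iron-binding protein lactoferrin and also on the luminal progenitor list, was 9.61 higher on the log2 scale in 45566B than in 45555 (SE 0.26). Csn3, kappa-casein, was 10.02 higher there (SE 0.63). Csn1s1, alpha-S1-casein, had 1.09 FPKM in 46295 knockout, where Prlr had 12.1 FPKM, against 190.5 FPKM in 45566B knockout, where Prlr had 15.1 FPKM. Csn3 had 1734 FPKM in 46295 knockout, against 1081 FPKM in 45566B knockout and 3623 FPKM in 45566B wild type. The 2 knockout libraries thus stood in opposite order for these caseins. The fitted line difference of Csn3 between 46295 and 45566B was 0.0009 on the log2 scale (SE 0.81). Jak2 lay between 7.10 and 35.3 FPKM and Stat5a between 3.28 and 15.1 FPKM in all 9 libraries. Xdh, which encodes xanthine dehydrogenase, a protein of milk fat globules, had an unadjusted p under 0.05 with limma both within lines, at -1.32 (SE 0.42), and over 9 libraries, at -1.79 (SE 0.56), and its adjusted p was 0.762 and 1.000.

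Of 18 listed estrogen and progesterone receptor targets, 17 were found in the table. Of the 8 tested within lines 4 were higher and 4 lower in knockout, and of the 9 tested over 9 libraries 3 were higher and 6 lower, with none called. Areg, which encodes the ligand amphiregulin, was called higher in 45566B than in 45555 (5.65, SE 0.35) and than in 47298. Tff1 and Tff3, targets of estrogen receptor alpha, were listed at 0 in all 9 libraries. Ccnd1, which encodes cyclin D1 and had the highest mean of the list, was between 105 and 933 FPKM. It had the only unadjusted p under 0.05 of the list within lines, at 1.45 (SE 0.49, adjusted p = 0.762 with limma).

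Of 16 other nuclear and class I cytokine hormone receptors, 12 were tested in each comparison, with 3 higher and 9 lower in knockout within lines, 2 higher and 10 lower over 9 libraries, and none called. Ghr, the growth hormone receptor and a relative of Prlr, went the other way from Prlr between lines. It was called lower in 45566B than in 45555 (-3.52, SE 0.43) and than in 47298 (-3.36).

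Of 14 steroid receptor coregulators, all were tested, with 4 higher and 10 lower in knockout within lines, 6 higher and 8 lower over 9 libraries, and none called. Nrip1, a corepressor of estrogen receptor alpha, was called higher in 45566B than in 45555 and than in 47298. Ncoa1, a coactivator, was called higher in 45566B than in 47298. These calls, 1 of 14 against 45555 and 2 of 14 against 47298, are shares near or under those of all genes (15.3% and 12.7%). Of 18 other ETS factors, 14 were tested, with 9 higher and 5 lower within lines, 8 higher and 6 lower over 9 libraries, and none called in knockout against wild type. Etv1 and Etv5 were called higher in 45566B than in 45555 and Elk3 lower in 45566B than in 47298. These 2 of 14 called in 45566B against 45555 are a share near that of all genes (15.3%).

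For the 6 genes that reached 5 FPKM in a library, the 3 other genes with the most similar profile over the 9 libraries were taken by Pearson r of log2(FPKM + 1) among 12191 genes. The libraries share lines, so these values only describe. Elf3 was most like Cdh1 (r = 0.997), which encodes E-cadherin, Csn3 (0.994) and Sbk1 (0.994). Prlr was most like 0610040J01Rik (r = 0.996), Kit (0.996), a receptor of luminal progenitors, and Ltf (0.994). Elf5 was most like Ckmt1 (r = 0.998), Ptpn18 (0.996) and Fam187b (0.996), and Ehf most like Efna4 (0.994), Mgat4a (0.989) and Src (0.988). Foxa1 was most like Pigr (r = 0.999), the polymeric immunoglobulin receptor, Cd177 (0.996) and the Wnt inhibitor Wif1 (0.995). Gata3 was most like 9330188P03Rik (r = 0.985), 9230102O04Rik (0.984) and the laminin chain gene Lama5 (0.983).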

How the data were processed

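The deposited table holds FPKM per gene symbol in 24346 rows. The submitters' processing notes name Cuffnorm, Cufflinks 2.2, TopHat2 2.1 and cutadapt as tools and mm10 as the build. The sources used here give neither the annotation nor the scaling option nor the handling of strand. Overlapping genes therefore cannot be told apart. A smaller table of 4 libraries held identical values and was not used. In 27 names the symbol had become a date, and 4 such rows with repeated names were left out. Of the symbols, 23284 were found in GENCODE vM21. The column names of 33373 and 33377 lack a suffix that the other 7 carry.

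FPKM are not counts, and absolute depth is unknown. Relative depth, read from the smallest steps of low genes, ran from 0.416 (46295) to 1 (45566B wild type). Library sums ran from 567403 to 721751 FPKM.

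Tests were two-sided fits of log2(FPKM + 1) in limma 3.58.1 (R 4.3.3), with variances that follow the mean, a filter of a mean of at least 1 FPKM, and Benjamini-Hochberg adjustment at 0.05. Such log2 differences understate changes of low genes. The 2 libraries of a line deviated together (correlations of 0.700 in 45555, 0.399 in 47298 and 0.804 in 45566B), the pairing comes from the line in the labels, and the line was a block within lines. The fit of the line contrasts was added after the data were seen. Fits were tested on simulated data.

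The 9 genes, the 6 gene lists and the 8 marker lists were chosen with earlier results of these data known. All 9 genes were named, with the 3 most similar genes for those reaching 5 FPKM, and, of each list, members with the highest mean and members called. Not every gene this rule names is reported here. Epcam, Krt8 and other list members were named after their values were seen. Alternatives were pseudocounts of 0.1 and 0.5, a filter at 5 FPKM or none, upper-quartile scaling, no variance trend, the replicate block and leaving out libraries.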

Additional observations from a re-analysis of the deposited data

Results flagged for a closer look

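In each state the spread of a gene was compared with the gap of its highest or lowest library to the next (Dixon's test, a 95% critical value). Chance passes it in about 1 in 20 groups of normally distributed values. FPKM are bounded at 0 and come from unlike lines, so the share passing here cannot be set against that rate. Of 18 groups, 5 passed it. Foxa1 stood apart in the knockout library of 45566B (3.27 FPKM) and in the wild-type library of the same line (5.20 FPKM). Pgr stood apart in the knockout library of 46295 (0.900 FPKM). Spdef stood apart in the knockout library of 45566B (0.0227 FPKM) and the wild-type library of 33377 (0.0196 FPKM), which are single steps above libraries listed at 0. A group with only 1 value above 0, as in both Spdef groups, passes by construction.

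Where both pairs set side by side averaged 1 FPKM or more, the difference between knockout and wild type ran in opposite directions between lines for Gata3 and Ehf. For Gata3 the log2 difference was 2.58 in 47298, against -0.09 in 45555 and -0.03 in 45566B. For Ehf it was 0.17 in 47298 against -0.30 in 45566B. With lower pairs included, Esr1 had 1.30 in 47298 against -0.33 in 45555, Prlr 0.08 in 47298 against -0.71 in 45566B, Foxa1 0.02 in 47298 against -0.54 in 45566B, and Elf3 0.06 in 45555 against -0.43 in 45566B. The positive values of Foxa1 and Elf3 each rest on 1 smallest step in knockout, with wild type listed at 0. With 1 library for each line and state, these differences between lines were not tested.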

How the results depend on the processing

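Within lines, no gene was called under any alternative but 1: leaving out a line gave 0 to 6 called genes, the 6 without 47298. Over 9 libraries the range without 1 library was 0 to 1, with 0 for the other alternatives. The replicate block was the line. Without the replicate block within lines 0 genes were called, and with it over 9 libraries 0 were.

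Counts of called genes moved in the line contrasts. For 33373 against 33377 there were 48 with a filter at 5 FPKM, 306 with no filter and 0 with a pseudocount of 0.1 (0 of the 7 genes). With no filter, 45566B had 1140 against 45555 and 837 against 47298, and 46295 had 301 against 45566B (1 of the 9 genes, Pgr). With the filter at 5 FPKM 3 of the genes were called in both contrasts of 45566B. For 46295 against 45566B there were 10 without a variance trend and 4 without 33373 and 33377, and for 47298 against 45555 there were 5 with a pseudocount of 0.1. Without 1 library the ranges were 0 to 2840 genes (0 to 6 of the 7) for 45566B against 45555, 0 to 1678 (0 to 6) against 47298, 0 to 139 (0 to 3) for 33373 against 33377, 0 to 275 (0 to 1) for 47298 against 45555 and 0 to 3 (0 to 0) for 46295 against 45566B. Leaving out a paired library loses a residual degree of freedom whichever line it comes from, and counts rose without some of these libraries and fell without others. The cause was not tested.

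Some log2 differences that no test called changed sign. Within lines, Elf3 was 0.032 with a pseudocount of 0.1, and without 1 line Ehf ran from -0.15 to 0.0807 and Gata3 from -0.0604 to 1.28. Over 9 libraries, Foxa1 was 0.12 and 0.0223 with pseudocounts of 0.1 and 0.5 and 0.19 without 45555 and 47298. Elf3 was -0.042 and -0.0152 with these pseudocounts, -0.00528 with upper-quartile scaling and -0.0571 with the replicate block. Prlr was 0.16 with a pseudocount of 0.1, 0.36 without 33373 and 33377 and 0.44 without 45555 and 47298, where Gata3 was -0.0928. Without 1 library, values over 9 libraries ran from -0.45 to 1.49 (Ehf), -0.53 to 0.48 (Elf3), -0.77 to 1.44 (Elf5), -0.17 to 0.20 (Foxa1), -0.28 to 1.15 (Gata3) and -0.77 to 0.73 (Prlr).

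In the line contrasts, ranges that crossed 0 without 1 library were Esr1 in 45566B against 45555 (-0.51 to 0.52), Esr1 (-1.09 to 0.34) and Gata3 (-0.40 to 2.24) in 45566B against 47298, and Elf3 (-0.10 to 0.37) and Gata3 (-0.82 to 0.48) in 46295 against 45566B. In 47298 against 45555 they were Elf3 (-0.0695 to 0.21), Elf5 (-0.0701 to 0.0254), Esr1 (-0.33 to 1.10), Foxa1 (-0.14 to 0.14) and Prlr (-0.0595 to 0.38). Absolute depth is unknown, so no floor can be given for values listed at 0.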
